A study of Mus musculus with 14 samples.

Results

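Chemokines and their receptors were followed in purified mouse retinal pigment epithelium (RPE) through 10 genes chosen by name: the ligands Ccl2, Ccl7, Cxcl1, Cxcl2, Ccl3, Ccl4, Cxcl12 and Cx3cl1 and the receptors Ccr2 and Cx3cr1. All 10 were found among the 42687 genes of the count table, and all 10 had enough reads to be tested in every comparison. KO mice (Best1-Cre+/-; Clic4f/f) carried a Cre driven by the RPE promoter of Best1 together with floxed alleles of Clic4. They were compared with wild-type mice (WT), with mice that carried the floxed alleles without Cre (Ctrl, Clic4f/f) and with mice that carried Cre alone (CreCtrl, Best1-Cre+/-). All were C57BL/6J males of 3 months, the cells of both eyes of a mouse were pooled, and a library of messenger RNA was made for each of 14 mice. The WT set held 3 WT and 3 KO libraries, the Ctrl set 2 Ctrl and 2 KO libraries, and the CreCtrl set 2 CreCtrl and 2 KO libraries. No library belonged to more than 1 set, so control genotype and set cannot be told apart.

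Chemokines are small secreted proteins that guide leukocytes along a gradient by binding receptors in the cell membrane. CC ligands such as Ccl2 mainly draw monocytes and macrophages, the CXC ligands Cxcl1 and Cxcl2 draw neutrophils, Cxcl12 is made constitutively by stromal cells, and Cx3cl1 (fractalkine) is a membrane-tethered ligand known from neurons, endothelium and epithelium. In the eye, Cx3cr1 marks microglia and resident macrophages and Ccr2 marks monocytes that arrive from blood. The inducible ligands are classical targets of NF-kB, a transcription factor released by inflammatory and stress signals.

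The targeted gene was lower in every KO library than in every control library. Clic4 ranged from 62.1 to 229.7 CPM in the 7 controls and from 9.78 to 33.9 CPM in the 7 KO libraries, where CPM are read counts relative to the library total, scaled with TMM factors over all 14 libraries. A library held 9828293 to 32384166 counts. The 10 RPE markers were detected in every group, and their summed level ranged from 12230 to 43850 CPM in controls and from 50780 to 63460 CPM in KO libraries. The summed level of 10 fibroblast markers ranged from 1241 to 8247 CPM in controls and from 125 to 792 CPM in KO libraries. KO and control libraries thus also differed in transcripts of cells other than RPE. The control genotypes differed among themselves as well. Fibroblast sums were 8039 to 8247 CPM in WT, 1241 to 2412 CPM in Ctrl and 1402 to 2799 CPM in CreCtrl. RPE sums were 12230 to 18810, 32700 to 34670 and 38970 to 43850 CPM in the same order. In a bulk sample, fewer cells of a type and less RNA per cell cannot be told apart. The part of these cells in the chemokine differences was not tested.

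Of the 10 genes, 7 had a promoter window in the RefSeq table for GRCm38.p6 (250 bases before and 50 after the transcription start). Ccl2, Ccl7 and Ccl4 had no window, so their promoters were not searched. Cxcl1 and Cxcl2 are neighbouring genes on chromosome 5, 10755 bp apart and on the same strand. Among the 7 genes searched, only their windows held the 10-base NF-kB consensus. The 250 bases before each start are shown, on the plus strand and 5′ to 3′, because both carried the same 11-base run, in capitals, within a short distance of the start.
Cxcl1, chr5:90890995-90891244: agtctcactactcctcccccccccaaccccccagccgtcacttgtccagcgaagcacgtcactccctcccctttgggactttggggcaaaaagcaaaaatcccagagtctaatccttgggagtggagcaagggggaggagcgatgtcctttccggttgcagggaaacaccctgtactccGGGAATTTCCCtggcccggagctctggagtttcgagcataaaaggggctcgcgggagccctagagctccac
Cxcl2, chr5:90903649-90903898: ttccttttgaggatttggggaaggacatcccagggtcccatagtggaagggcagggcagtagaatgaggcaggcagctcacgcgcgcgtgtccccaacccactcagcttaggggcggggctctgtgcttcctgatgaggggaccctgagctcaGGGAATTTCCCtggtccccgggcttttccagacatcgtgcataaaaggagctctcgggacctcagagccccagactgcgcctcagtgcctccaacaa
The run began 71 bases before the RefSeq start of Cxcl1 and 97 bases before that of Cxcl2. The gene positions given below come from another annotation and begin earlier, at 90891241 and 90903871. Both distances, and the difference between them, therefore depend on the annotation. It was matched on both strands by overlapping copies of the consensus, so it counts as 1 place in each promoter. Of all 32851 promoter windows of the same length, 4.51% held the consensus. The longest run shared by both windows was 20 bases (gcactccagactccagccac), just after the start. The AP-1 motif TGANTCA, searched on both strands and overlapping no NF-kB match, was in none of the 7 windows (0 of 7) and in 7.81% of all windows. These are matches of letters, and binding was not measured.

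Every member had a lower fitted level in KO than in controls in each of the 3 sets. In KO vs. WT all 10 were called lower (adjusted p under 0.05 and fold change above 1.5), beside 17.6% of the 15428 genes tested that were called lower and 31.7% called in either direction. In KO vs. CreCtrl 8 of 10 were called lower, all but Ccl3 and Ccl4, beside 12.2% of 15963 genes lower and 15.6% in either direction. In KO vs. Ctrl 0 of 10 were called by edgeR, as were 0% of the 15287 genes tested, while 4 members (Ccl2, Ccl7, Cxcl1 and Cxcl12) had an unadjusted p under 0.05, beside 12.1% of all genes. DESeq2 called those 4 members. With the set as a covariate, all KO vs. all controls called all 10 lower, beside 15.7% of 17662 genes lower and 26% in either direction. The median log2 fold change of the members was -3.29, -1.30, -2.60 and -2.56 in KO vs. WT, Ctrl, CreCtrl and all controls, beside -0.08, 0.01, -0.02 and -0.03 over all genes tested.

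The groups were separate, with every KO library below every control library of its set, for 9 of 10 members in the WT set (24.5% of all genes), 6 of 10 in the Ctrl set (22.7%) and 10 of 10 in the CreCtrl set (34.9%). Across all 14 libraries 3 of 10 members were separate (4.77% of all genes), namely Cxcl1, Cxcl2 and Cxcl12. A fit of all 14 libraries as 6 groups, which shares 1 estimate of the spread, called 9 members against WT. It called 2 against Ctrl (Ccl7 and Cxcl12) and 1 against CreCtrl (Cxcl12, adjusted p = 0.0153 from edgeR). The genes this fit called in all are given below for Ctrl and CreCtrl and are not given here for WT. Where labels do not name separate litters or days, p-values measure the spread between these mice.

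**Figure D1:**
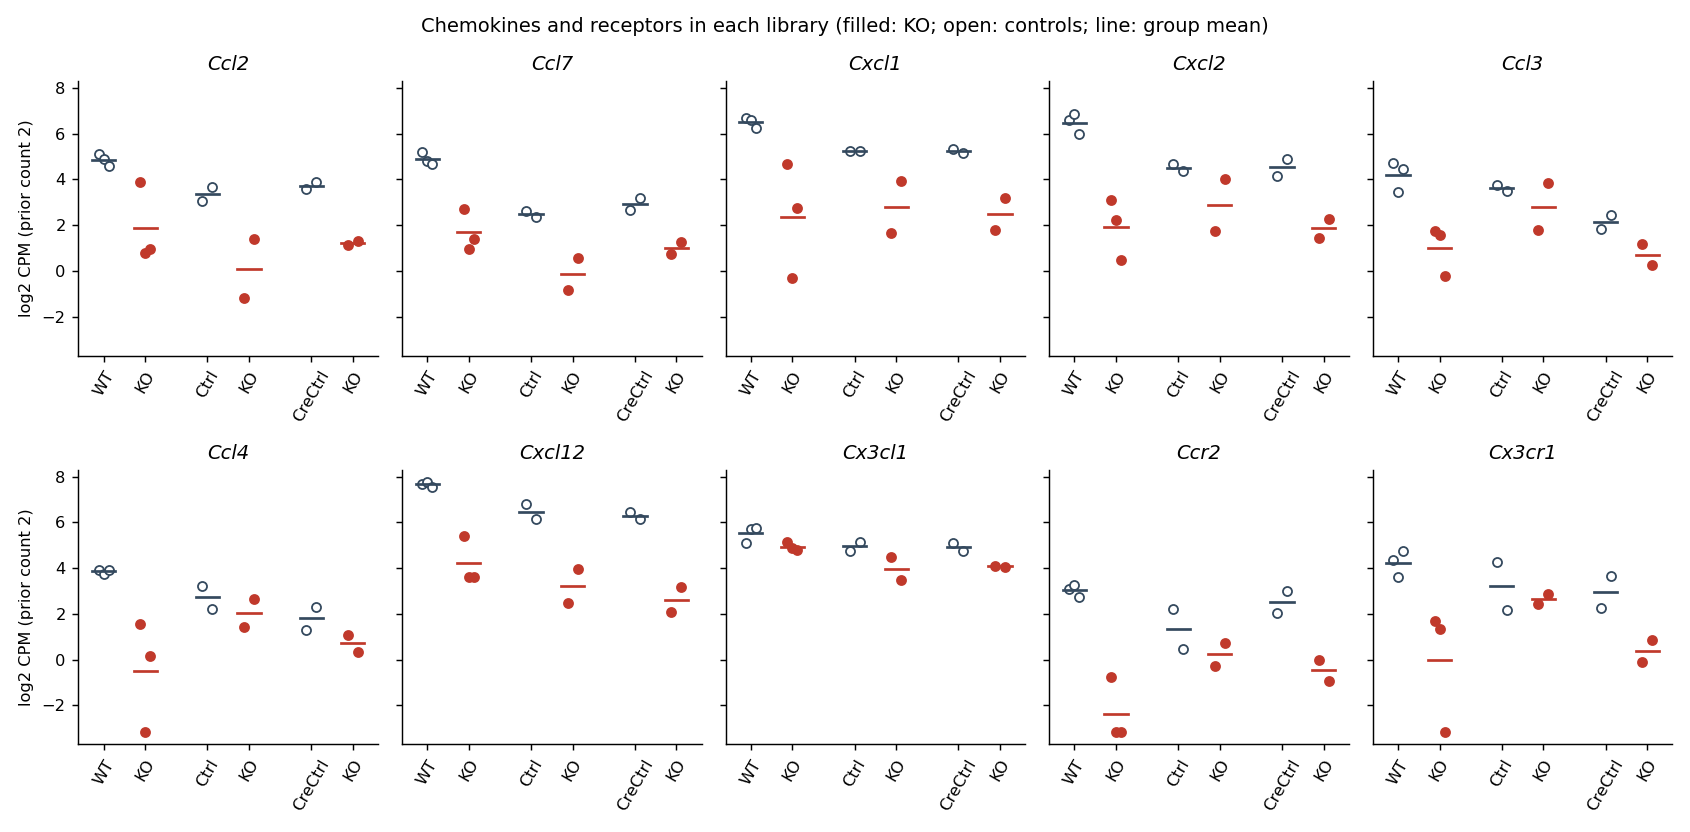
Level of each of the 10 genes in each of 14 libraries, as log2 CPM with a prior count of 2 (y axis), by group (x axis); open points are WT, Ctrl and CreCtrl libraries, filled points are KO libraries of the same set, and lines are group means. KO points sit below the controls of their set in most panels, and in the WT and CreCtrl sets Cx3cl1 shows the smallest step.

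Cxcl12 had the smallest adjusted p of the 10 over all sets. It encodes the stromal ligand that retains CXCR4-bearing cells in tissue (ENSMUSG00000061353, chromosome 6, 117168535 to 117181367, plus strand, GRCm38). Its level was 206, 216 and 184 CPM in WT and 42.4, 12.1 and 12.2 CPM in KO libraries of the WT set. It was 112.02 and 70.2 CPM in Ctrl and 5.41 and 15.4 CPM in KO libraries of the Ctrl set. It was 86.6 and 69.7 CPM in CreCtrl and 4.13 and 8.86 CPM in KO libraries of the CreCtrl set. The highest KO library, KO replicate 1 of the WT set, was still below the lowest control. Cxcl12 fell with a log2 fold change of -3.32 in KO vs. WT (SE 0.47, adjusted p = 0.000858 from edgeR) and of -3.61 in KO vs. CreCtrl (SE 0.36, adjusted p = 0.0039). In KO vs. Ctrl the log2 fold change was -3.13 (SE 0.57) with an adjusted p of 0.116. Over all sets it was -3.28 (95% interval -3.98 to -2.58, adjusted p = 1.65e-05), a 9.71-fold difference, and 87 of 17662 genes had a smaller p. The log2 fold change lay between -3.61 and -3.15 when any 1 of the 14 libraries was left out.

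The receptors of Cxcl12 did not move together. Cxcr4, its signalling receptor, ranged from 10.1 to 46.2 CPM in controls and from 0.909 to 38.6 CPM in KO libraries, and fell in KO vs. WT (log2 fold change -2.54, SE 0.26) and in KO vs. CreCtrl (-3.37, SE 0.41). In KO vs. Ctrl the value was 0.16 (SE 0.97, adjusted p = 0.983 from edgeR), with KO libraries at 3.65 and 38.6 CPM around the Ctrl libraries at 14.8 and 22.9 CPM. Ackr3, the atypical receptor that scavenges Cxcl12, was higher in KO than in control libraries of every set. Its level was 39.3 to 82.3 CPM in WT and 93.1 to 115.4 CPM in KO, 92.8 to 110 CPM in Ctrl and 119 to 139 CPM in KO, and 75.2 to 96.4 CPM in CreCtrl and 109 to 130.3 CPM in KO. It was called only over all sets (log2 fold change 0.59, SE 0.15, adjusted p = 0.00784).

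Ccl2 and Ccl7 are the monocyte chemoattractants that signal through Ccr2, and they lie 8258 bp apart on chromosome 11. Ccl2 (ENSMUSG00000035385, 82035571 to 82037453, plus strand) was at 34.7, 29.6 and 24.1 CPM in WT and at 14.8, 1.61 and 1.80 CPM in KO libraries of the WT set. It was at 8.23 and 12.6 CPM in Ctrl and at 0.326 and 2.51 CPM in KO libraries of the Ctrl set. It was at 11.8 and 14.5 CPM in CreCtrl and at 2.11 and 2.36 CPM in KO libraries of the CreCtrl set. KO replicate 1 of the WT set stood above the other 6 KO libraries, at the level of the highest CreCtrl library. The log2 fold change was -2.42 in KO vs. WT (SE 0.78, adjusted p = 0.0409 from edgeR), -2.59 in KO vs. CreCtrl (SE 0.29, adjusted p = 0.00489) and -2.87 in KO vs. Ctrl (SE 0.93, adjusted p = 0.277). The call in KO vs. WT was lost when any 1 of the 3 WT libraries, KO replicate 2 or KO replicate 3 was left out (adjusted p up to 0.11), and without KO replicate 1 the value was -4.19 (adjusted p = 0.000138).

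Ccl7 (ENSMUSG00000035373, 82045712 to 82047525, plus strand) ranged from 4.98 to 36.2 CPM in controls and from 0.457 to 6.46 CPM in KO libraries, with 6 of 7 KO libraries below every control. It fell by 3.19 on the log2 scale in KO vs. WT (SE 0.47, adjusted p = 0.00107 from edgeR) and by 2.00 in KO vs. CreCtrl (SE 0.39, adjusted p = 0.0204), and its value in KO vs. Ctrl was -2.58 (adjusted p = 0.201). The ratio of Ccl2 to Ccl7 reads in a library was 0.939 to 2.54 in controls and 0.711 to 2.28 in KO libraries. It was below the lowest control in KO replicates 2 and 3 of the WT set (0.885 and 0.711). The same held for KO replicate 1 of the Ctrl set (0.714, from 5 reads of Ccl2 and 7 of Ccl7). The other KO libraries lay within the range of the controls. The call of Ccl7 in KO vs. CreCtrl was lost without CreCtrl replicate 2 (adjusted p = 0.0546).

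Their receptor Ccr2 (ENSMUSG00000049103, chromosome 9, 124101950 to 124113557, plus strand) had the fewest reads of the members. It had 103, 110 and 97 counts (8.45, 9.47 and 6.65 CPM) in WT and 7, 0 and 0 counts in KO libraries of the WT set. It had 69 and 34 counts (4.54 and 1.26 CPM) in Ctrl and 11 and 26 counts (0.717 and 1.55 CPM) in KO libraries of the Ctrl set. It had 94 and 125 counts (4.02 and 7.94 CPM) in CreCtrl and 21 and 12 counts (0.867 and 0.417 CPM) in KO libraries of the CreCtrl set. The groups overlapped in the Ctrl set alone, where KO replicate 2 lay above Ctrl replicate 2. Ccr2 fell in KO vs. WT, where 2 of 3 KO libraries were at 0 and the fitted log2 fold change of -5.74 (SE 1.22, adjusted p = 0.00669 from edgeR) rested on 7 reads of KO replicate 1. Against the floor of 3 counts per library (up to 0.21 CPM in those 2 libraries), the mean of WT was at least 39.0-fold higher. In KO vs. CreCtrl the log2 fold change was -3.26 (SE 0.56, adjusted p = 0.0139), and in KO vs. Ctrl -1.34 (95% interval -3.54 to 0.86, adjusted p = 0.721).

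Cxcl1 and Cxcl2, whose promoters are shown above, signal through Cxcr2 on neutrophils. Cxcl1 (ENSMUSG00000029380, chromosome 5, 90891241 to 90893115) was at 103, 97.8 and 75.4 CPM in WT and at 25.1, 0.699 and 6.68 CPM in KO libraries of the WT set. It was at 38.0 and 38.2 CPM in Ctrl and at 3.00 and 15.3 CPM in KO libraries of the Ctrl set. It was at 39.6 and 35.4 CPM in CreCtrl and at 3.31 and 9.07 CPM in KO libraries of the CreCtrl set. All 7 KO libraries were below all 7 controls, and the KO libraries of the WT set were spread from 0.699 to 25.1 CPM. The log2 fold change was -3.22 in KO vs. WT (SE 0.86, adjusted p = 0.0187 from edgeR), -2.06 in KO vs. Ctrl (SE 0.72, adjusted p = 0.321) and -2.62 in KO vs. CreCtrl (SE 0.43, adjusted p = 0.0125). The call in KO vs. WT was lost when WT replicate 1 or 2 or KO replicate 3 was left out (adjusted p up to 0.0708).

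Cxcl2 (ENSMUSG00000058427, chromosome 5, 90903871 to 90905938) was at 96.7, 114 and 64.0 CPM in WT and at 8.57, 4.54 and 1.27 CPM in KO libraries of the WT set. It was at 25.1 and 20.5 CPM in Ctrl and at 3.26 and 15.9 CPM in KO libraries of the Ctrl set. It was at 17.5 and 30.0 CPM in CreCtrl and at 2.60 and 4.76 CPM in KO libraries of the CreCtrl set. Here too all 7 KO libraries were below all 7 controls, and KO replicate 2 of the Ctrl set came nearest to them. Cxcl2 fell 21.1-fold in KO vs. WT (log2 fold change -4.40, SE 0.56, adjusted p = 0.000484 from edgeR) and 6.53-fold in KO vs. CreCtrl (-2.71, SE 0.40, adjusted p = 0.00868), and its value in KO vs. Ctrl was -1.25 (95% interval -3.03 to 0.53). The KO effect in the WT set minus that in the Ctrl set was -3.01 (SE 0.93, unadjusted p = 0.00659, adjusted p = 0.0796), which did not pass.

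The proportion of the 2 neighbours varied between KO libraries. The ratio of Cxcl1 to Cxcl2 reads was 0.856 to 2.26 in the 7 controls and 0.154 to 5.26 in the 7 KO libraries. Both extremes were KO libraries of the WT set, with 10 reads of Cxcl1 beside 65 of Cxcl2 in KO replicate 2 and 100 beside 19 in KO replicate 3. Their receptor Cxcr2 was near the limit of detection, at 0 to 2.22 CPM in controls and 0 to 0.537 CPM in KO libraries. It was called lower in KO vs. CreCtrl (adjusted p = 0.0367) and was not tested in the other 2 sets because of low counts.

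Ccl3 and Ccl4 are macrophage inflammatory proteins, and Ccl3 signals through Ccr1. They are 13228 bp apart on opposite strands of chromosome 11. Ccl3 (ENSMUSG00000000982, 83647844 to 83649355, minus strand) was at 26.2, 10.7 and 21.9 CPM in WT and at 3.20, 2.87 and 0.735 CPM in KO libraries of the WT set. It was at 13.3 and 11.1 CPM in Ctrl and at 3.33 and 14.1 CPM in KO libraries of the Ctrl set. It was at 3.42 and 5.27 CPM in CreCtrl and at 2.15 and 1.08 CPM in KO libraries of the CreCtrl set. KO replicate 2 of the Ctrl set was above both Ctrl libraries, and the CreCtrl libraries were the lowest of the controls. Ccl3 fell in KO vs. WT (log2 fold change -3.26, SE 0.59, adjusted p = 0.00292 from edgeR) and was not called in KO vs. CreCtrl (-1.47, 95% interval -2.61 to -0.33, adjusted p = 0.0736) or in KO vs. Ctrl (-0.48, 95% interval -2.20 to 1.23, adjusted p = 0.911).

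Ccl4 (ENSMUSG00000018930, 83662584 to 83664683, plus strand) was at 15.1, 13.3 and 14.9 CPM in WT and at 2.79, 0 and 1.00 CPM in KO libraries of the WT set. It was at 9.28 and 4.57 CPM in Ctrl and at 2.54 and 6.15 CPM in KO libraries of the Ctrl set. It was at 2.31 and 4.89 CPM in CreCtrl and at 2.02 and 1.15 CPM in KO libraries of the CreCtrl set. The 3 WT libraries were well above the KO libraries of their set, the Ctrl set overlapped, and the groups of the CreCtrl set were separate by a small step. The log2 fold change was -3.64 in KO vs. WT (SE 1.01, adjusted p = 0.0224 from edgeR), -0.67 in KO vs. Ctrl (adjusted p = 0.848) and -1.22 in KO vs. CreCtrl (95% interval -2.47 to 0.04, adjusted p = 0.139). Without CreCtrl replicate 1 both Ccl3 and Ccl4 were called in KO vs. CreCtrl (adjusted p = 0.0466 and 0.0494), while Ccl3 was at -1.06 without KO replicate 2 (adjusted p = 0.353) and Ccl4 at -0.60 without CreCtrl replicate 2 (adjusted p = 0.592). Ccl4 was the weakest of the calls over all sets (-1.99, adjusted p = 0.0355), and the call was lost in 9 of the 14 fits that left out 1 library (adjusted p up to 0.0803). In KO vs. WT it was lost without any 1 of the WT libraries or without KO replicate 3 (adjusted p up to 0.0668).

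Ccr1, a receptor of Ccl3, was at 1.08 to 4.10 CPM in controls and at 0 to 3.28 CPM in KO libraries and was called in no comparison (adjusted p = 0.225 from edgeR over all sets).

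Cx3cl1, the tethered ligand of Cx3cr1 (ENSMUSG00000031778, chromosome 8, 94772009 to 94782427, plus strand), had the smallest log2 fold change of the 10 in KO vs. WT, in KO vs. CreCtrl and over all sets, though not in KO vs. Ctrl. It was at 34.1, 52.1 and 54.6 CPM in WT and at 34.8, 29.3 and 27.4 CPM in KO libraries of the WT set. It was at 26.9 and 35.7 CPM in Ctrl and at 22.2 and 11.04 CPM in KO libraries of the Ctrl set. It was at 34.5 and 26.8 CPM in CreCtrl and at 16.9 and 16.7 CPM in KO libraries of the CreCtrl set. WT replicate 1 lay just below KO replicate 1 of its set, so the groups overlapped there, and in the other sets they were separate. The log2 fold change was -0.77 in KO vs. WT (SE 0.22, adjusted p = 0.0243 from edgeR), -0.91 in KO vs. Ctrl (SE 0.41, adjusted p = 0.485) and -0.91 in KO vs. CreCtrl (SE 0.19, adjusted p = 0.0262). Over all sets it was -0.78 (95% interval -1.13 to -0.42, adjusted p = 0.00305), a 1.71-fold difference, the smallest of the 10 members. The call in KO vs. WT was lost when replicate 2 or 3 of either group was left out (adjusted p up to 0.108), and that in KO vs. CreCtrl without either KO library (adjusted p up to 0.0884).

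Cx3cr1 (ENSMUSG00000052336, chromosome 9, 119901616 to 120069879, minus strand), the receptor of microglia and resident macrophages, was at 20.5, 12.1 and 26.7 CPM in WT and at 3.13, 2.45 and 0 CPM in KO libraries of the WT set. It was at 19.2 and 4.39 CPM in Ctrl and at 5.22 and 7.28 CPM in KO libraries of the Ctrl set. It was at 4.70 and 12.6 CPM in CreCtrl and at 0.826 and 1.70 CPM in KO libraries of the CreCtrl set. Both KO libraries of the Ctrl set lay between the 2 Ctrl libraries. The log2 fold change was -3.56 in KO vs. WT (SE 0.98, adjusted p = 0.0219 from edgeR), -2.79 in KO vs. CreCtrl (SE 0.60, adjusted p = 0.0275) and -0.92 in KO vs. Ctrl (95% interval -2.75 to 0.91, adjusted p = 0.793), where it was 0.52 without Ctrl replicate 1. The call was lost in KO vs. WT when WT replicate 1 or 3 or KO replicate 2 was left out (adjusted p up to 0.0847) and in KO vs. CreCtrl without CreCtrl replicate 2 (adjusted p = 0.0825). Exons of the gene overlap Gm33858 on the other strand, and the strand setting of the counting is not given in the sources used here, so reads of the 2 genes may not have been kept apart.

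**Figure D2:**
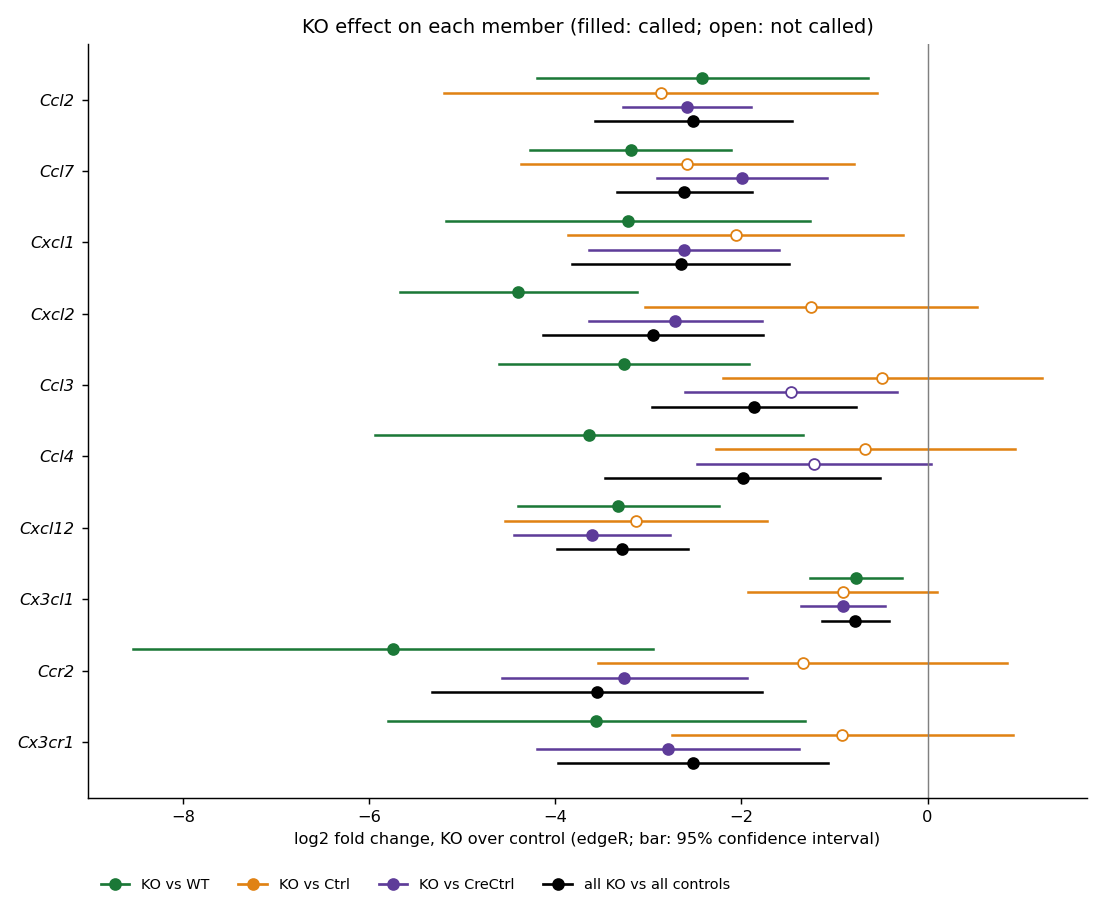
Log2 fold change of KO over control (x axis) with its 95% confidence interval (bar) for each of the 10 genes (y axis) in KO vs. WT, KO vs. Ctrl, KO vs. CreCtrl and all KO vs. all controls; filled points were called. Every point lies below 0, none is called in KO vs. Ctrl, and Cx3cl1 lies nearest to 0 except in KO vs. Ctrl.

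Per kilobase of exon, the order of the members differed between control and KO libraries. In the 7 controls the median level was highest for Cxcl1 (21.1 CPM per kb), followed by Cxcl2 (14.5), Ccl3 (14.5), Ccl4 (14.1), Cxcl12 (13.7), Ccl2 (12.8), Ccl7 (11.1) and Cx3cl1 (8.78). The ranges of each of these 8 ligands overlapped with that of the next. The receptors followed with 2.80 CPM per kb for Cx3cr1 and 0.983 for Ccr2, and the range of Cx3cr1 (0.973 to 5.92) did not reach that of Cx3cl1 (6.82 to 13.9). In the 7 KO libraries Cx3cl1 had the highest median (5.66 CPM per kb, range 2.81 to 8.86). It was followed by Ccl3 (3.74), Cxcl1 (3.57), Ccl4 (3.07), Ccl7 (2.27), Cxcl2 (2.20), Ccl2 (1.85), Cxcl12 (1.48), Cx3cr1 (0.543) and Ccr2 (0.0704), each overlapping with the next, as Cx3cr1 and Ccr2 did in controls.

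The ligands of macrophages and of stroma were set against each other as the ratio of Cxcl12 to the sum of Ccl3 and Ccl4 in CPM, which were not corrected for length, so only differences between libraries are read. In the WT set Cxcl12 was 4.99, 9.02 and 4.99 times the sum in WT and 7.09, 4.22 and 7.04 times in KO libraries. In the Ctrl set it was 4.96 and 4.49 times in Ctrl and 0.922 and 0.761 times in KO libraries. In the CreCtrl set it was 15.1 and 6.86 times in CreCtrl and 0.990 and 3.98 times in KO libraries. The ranges of WT and KO libraries overlapped in the WT set, and in the other sets Cxcl12 was lower relative to Ccl3 and Ccl4 in every KO library. On the log2 scale, the ratio of Ccl3 and Ccl4 to Cxcl12 differed between KO and control means by 0.03 in the WT set (SD 0.43 in KO and 0.49 in WT), 2.49 in the Ctrl set (SD 0.20 and 0.10) and 2.36 in the CreCtrl set (SD 1.42 and 0.81). These differences were not tested.

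**Figure D3:**
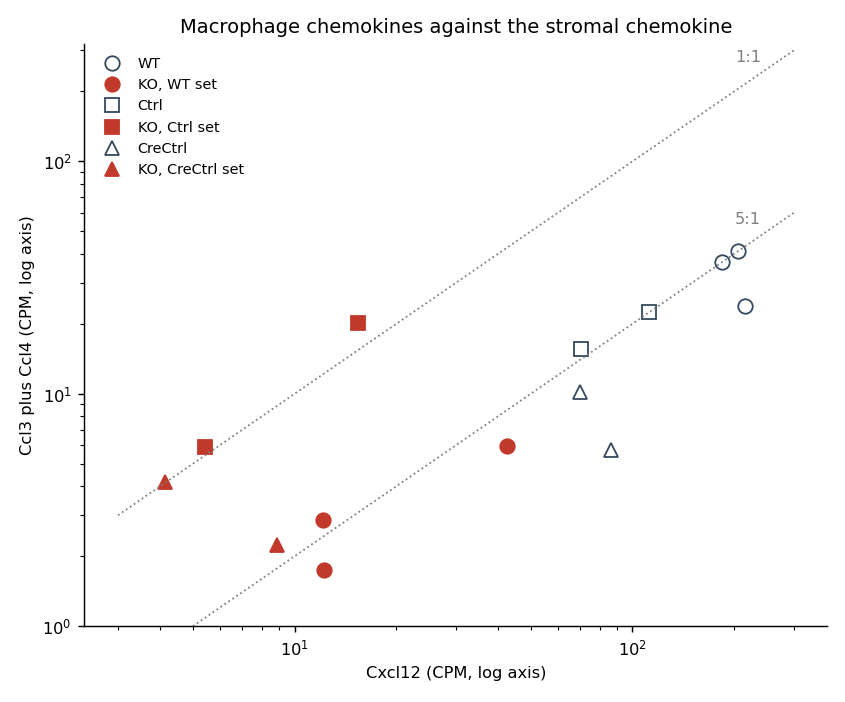
Cxcl12 (x axis, CPM, log scale) against the sum of Ccl3 and Ccl4 (y axis, CPM, log scale) in 14 libraries; open symbols are controls, filled symbols KO, shapes mark the sets, and dotted lines mark equal levels and 5 times more Cxcl12. Controls lie near or below the 5:1 line, the KO libraries of the WT set lie along it, and 3 of the other 4 KO libraries lie near the 1:1 line.

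By class, the 4 ligands inducible in many cell types (Ccl2, Ccl7, Cxcl1 and Cxcl2) were called in KO vs. WT and in KO vs. CreCtrl, with log2 fold changes of -2.87 to -1.25 in KO vs. Ctrl. The 4 genes of myeloid cells (Ccl3, Ccl4, Ccr2 and Cx3cr1) were called in KO vs. WT, 2 of them (Ccr2 and Cx3cr1) in KO vs. CreCtrl, with -1.34 to -0.48 in KO vs. Ctrl. The difference between the KO effects in the WT and Ctrl sets was -4.29 for Ccr2 (SE 1.48), -2.84 for Ccl4 (SE 1.33), -2.63 for Ccl3 (SE 0.94) and -2.50 for Cx3cr1 (SE 1.38). For the inducible ligands it was -3.01 for Cxcl2 (SE 0.93), -1.03 for Cxcl1 (SE 1.24), -0.48 for Ccl7 (SE 0.78) and 0.59 for Ccl2 (SE 1.19), and for the other ligands -0.06 for Cxcl12 (SE 0.76) and 0.29 for Cx3cl1 (SE 0.41), so the value of Cxcl2 lay among those of the myeloid genes. None of the 10 members passed in the test of this difference, where 5.15% of all genes were called, and 3 had an unadjusted p under 0.05 (Cxcl2, Ccl3 and Ccr2), beside 21.4% of all genes. Between the WT and CreCtrl sets 0 of 10 passed and 0 had an unadjusted p under 0.05, beside 1.49% and 14.9% of all genes. Between the Ctrl and CreCtrl sets 0 of 10 passed and 0 had an unadjusted p under 0.05, beside 0% and 8.75%. DESeq2 was not run for these differences. The WT libraries had higher fibroblast and lower RPE marker sums than the other controls, and the part of this in the differences between sets was not tested.

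The highest KO library was KO replicate 1 of the WT set for 5 members (Ccl2, Ccl7, Cxcl1, Cxcl12 and Cx3cl1) and KO replicate 2 of the Ctrl set for the other 5 (Cxcl2, Ccl3, Ccl4, Ccr2 and Cx3cr1). KO replicate 1 of the WT set also had the highest summed fibroblast markers of the KO libraries (792 CPM, the others 125 to 349.5 CPM). The same library was highest for the endothelial (183 CPM), pericyte and smooth muscle (376 CPM), immediate-early (1927 CPM) and NF-kB response (621 CPM) sums. For the RPE, myeloid, T and NK cell, mast cell, Schwann cell and rod sums another KO library was highest. KO replicate 2 of the Ctrl set had 2131 CPM of myeloid markers without Csf1r, above both Ctrl libraries (553 and 978 CPM) and far above the other 6 KO libraries (40.6 to 248 CPM). Csf1r was taken out of the myeloid sum after its values were seen, because it was higher in every KO than in every control library of its set and made up most of the sum in 6 of the 7 KO libraries. The part of any of these marker lists in the levels of the members was not tested. Without KO replicate 2, the log2 fold changes of KO vs. Ctrl were -2.80 for Cxcl2, -1.87 for Ccl3, -1.44 for Ccl4, -2.0 for Ccr2 and -1.17 for Cx3cr1, none of them called (adjusted p 0.106 to 0.923 from edgeR, with 1 KO library assumed to vary like the Ctrl libraries). Leaving out the highest KO library of these genes could only lower the KO mean. Without KO replicate 1 the values were -0.53, 0.20, -0.17, -0.90 and -0.70 in the same order, and without Ctrl replicate 1 they were -1.08, -0.33, -0.06, -0.14 and 0.52, again none of them called.

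Across the 14 libraries the members varied together, which largely restates the split between KO and control. Deviations from the 6 group means, which leave that split out, still tied Ccl2 to Ccl7 (Pearson's r = 0.93), Ccl7 to Cxcl12 (0.90), Ccl7 to Cxcl1 (0.88), Cxcl1 to Ccl4 (0.85) and Ccl2 to Cxcl12 (0.85). Ccl3 deviated with Cxcl2 (0.71) and Cx3cr1 (0.68) and hardly with its neighbour Ccl4 (0.15) or with Cxcl1 (0.12). Few reads in single libraries enter these r. KO replicate 2 of the WT set had 0 reads of Ccl4 and 10 of Cxcl1. KO replicate 3 of that set had 0 reads of Cx3cr1, 11 of Ccl3 and 19 of Cxcl2. How far the r rest on these libraries was not tested. The r of the deviations of Cx3cl1 with the other 9 members were all below 0 and none was strong. They ranged from -0.06 with Cx3cr1, which is close to no relation, to -0.48 with Ccl3. These values describe 14 libraries that differ in depth and, in groups of 2, have mirrored deviations, and they were not tested. The labels do not say which libraries were prepared together.

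**Figure D4:**
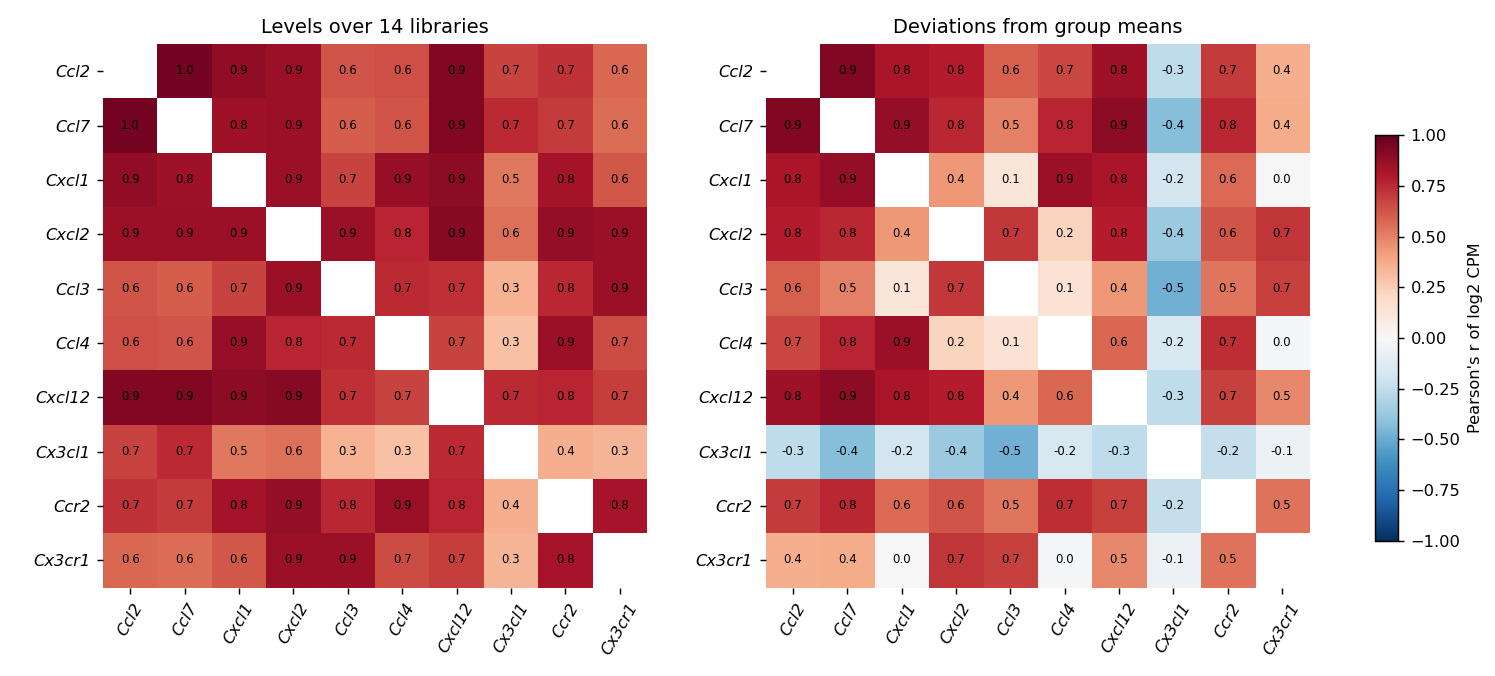
Pearson's r of log2 CPM for every pair of the 10 genes over 14 libraries, for the levels (left) and for deviations from the means of the 6 groups (right), on a colour scale from -1 to 1. The row of Cx3cl1 is positive on the left and negative on the right, and Ccl2, Ccl7 and Cxcl12 stay high in both.

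The genes most like each member were those of highest Pearson's r of log2 CPM over the 14 libraries, among 17616 genes, and these r also carry the split between KO and control. The 3 nearest to Ccl7 were Col3a1 (r = 0.98), Rcn3 (0.98) and Col16a1 (0.98), of which both collagens are matrix genes. Those nearest to Cxcl12 were C130021I20Rik (0.99), the immediate-early gene Fos (0.99) and Thbd (0.99). Those nearest to Cxcl1 included Gypc (0.98) and Plxdc1 (0.97), and those nearest to Cxcl2 were Axl (0.98), Angpt1 (0.98) and Abca9 (0.98). Ccl2 was nearest to Nupr1 (0.97), the endothelial cadherin Cdh5 (0.97) and Itih5 (0.96).
Ccl4 was nearest to the macrophage lectin Siglec1 (0.97), Cd33 (0.96) and S1pr2 (0.96). Ccl3 was nearest to Bcl2a1b (0.94), which has near-identical copies that may share its reads, Adap1 (0.94) and the phagosome transporter Slc11a1 (0.94). Ccr2 was nearest to Bst1 (0.98), Ighd (0.98) and Tifab (0.96), and genes near Cx3cr1 included the myeloid transcription factor Irf8 (0.98) and the RNA sensor Tlr7 (0.95). Cx3cl1 was nearest to Tmprss2 (0.94), Card10 (0.92) and the complement gene C4b (0.92), which has a near-identical copy as well.

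Of 30 other chemokine ligands, 23 had enough reads to be tested over all sets. There 10 were called lower and 0 higher, beside 15.7% of all genes lower and 10.3% higher. In KO vs. WT 6 of 16 were lower (17.6% of all genes), in KO vs. CreCtrl 6 of 15 (12.2%) and in KO vs. Ctrl 0 of 13 (0%). In these 3 comparisons 0 ligands were higher, beside 14.1%, 3.46% and 0% of all genes in the same order. Since KO vs. Ctrl called 0 genes, its counts say nothing particular about these ligands. Ccl11, the eosinophil chemoattractant eotaxin, ranged from 4.08 to 33.5 CPM in controls and from 0.391 to 5.99 CPM in KO libraries (log2 fold change over all sets -2.87, SE 0.53, adjusted p = 0.00134 from edgeR). Cxcl10, the interferon-induced T cell attractant, fell over all sets with a log2 fold change of -1.46 (SE 0.32). Cxcl16, a tethered ligand of Cxcr6, fell with -2.49 (SE 0.57) and Pf4, a platelet and macrophage chemokine, with -3.71 (SE 0.84). Ccl19, a ligand of Ccr7, was called as well with few reads, at most 2.15 CPM in controls and 0.068 CPM in KO libraries. Cxcl16 showed the pattern of the myeloid members, with KO libraries of the Ctrl set at 3.65 and 46.9 CPM beside 30.3 and 44.4 CPM in Ctrl.
Of 21 other receptors, 15 were tested over all sets, with 6 called lower and 1 (Ackr3) higher. In KO vs. WT 4 of 8 were lower, in KO vs. CreCtrl 6 of 11 and in KO vs. Ctrl 0 of 10, with 0 higher in each. The shares of all genes given for the ligands apply to the receptors as well. The median log2 fold change over all sets was -2.22 for the ligands and -1.88 for the receptors.

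Lists of other transcripts moved with the chemokines. Of 10 immediate-early genes, 10, 0, 10 and 10 were called lower in KO vs. WT, Ctrl, CreCtrl and all controls, and of 10 NF-kB response genes 9, 0, 8 and 10. In the same order, 17.6%, 0%, 12.2% and 15.7% of all genes were called lower and 14.1%, 0%, 3.46% and 10.3% higher. The 0 of each list in KO vs. Ctrl therefore holds for every gene tested there. The summed NF-kB response genes ranged from 1127 to 2927 CPM in controls and from 146 to 621 CPM in KO libraries. Fibroblast markers were called lower for 10, 0, 9 and 10 of 10, with median log2 fold changes of -4.32, -2.94, -3.37 and -3.62. Endothelial markers were called lower for 8, 0, 8 and 10 of 10, and pericyte and smooth muscle markers for 4, 0, 4 and 5 of 7.
Myeloid markers without Csf1r were called lower for 10, 0, 9 and 8 of 10, with median log2 fold changes of -3.87, 0.20, -2.82 and -2.32. The summed T and NK cell markers were at most 4.81 CPM in any library. Of 5 mast cell markers 4 were called lower over all sets, and 3 were at 0 in both KO libraries of the Ctrl set. The other, Kit, had a log2 fold change of 0.63 over all sets, not called. Kit was called higher in KO vs. WT (1.13, adjusted p = 0.00524 from edgeR). Only 2, 1 and 2 of the 5 were tested in KO vs. WT, Ctrl and CreCtrl. The summed mast cell markers, with Kit kept in, ranged from 12.5 to 69.8 CPM in controls and from 27.4 to 38.6 CPM in KO libraries. In KO replicate 2 of the WT set, KO replicate 2 of the Ctrl set and KO replicate 1 of the CreCtrl set, 4 of 5 markers were at 0. Their sums, 31.9, 32.6 and 27.4 CPM, therefore do not stand for the whole list. In the other KO libraries 0 to 3 markers were at 0. Rod markers were called lower for 6 of 6 in KO vs. CreCtrl and for 0 in the other comparisons, and 1 of 5 Schwann cell markers was called lower and 1 higher over all sets. RPE markers were called higher for 8, 0, 1 and 6 of 10 in the same order, and 1 was called lower in KO vs. CreCtrl. How much of the chemokine differences goes with any of these lists was not tested.

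**Figure D5:**
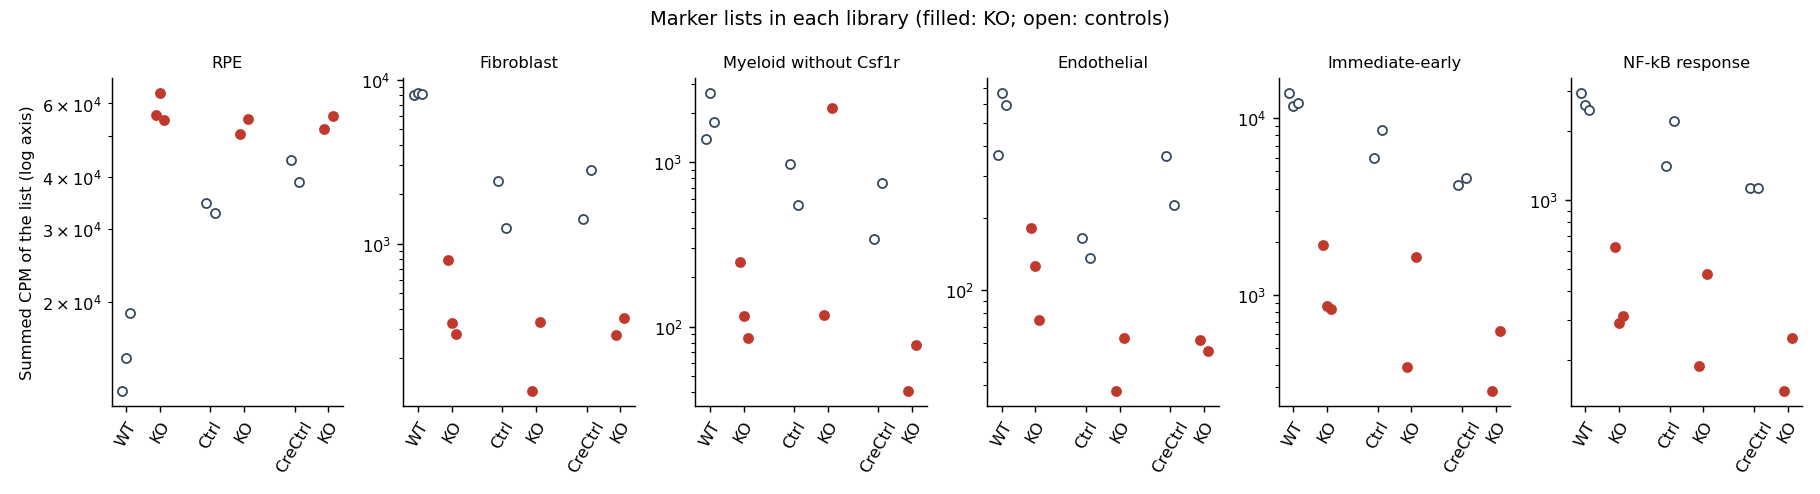
Summed CPM (y axis, log scale) of 6 marker lists in each of 14 libraries by group (x axis); open points are controls and filled points KO. Fibroblast, immediate-early and NF-kB response sums are lower in every KO library than in the controls of its set, RPE sums are higher, and 1 KO library of the Ctrl set (2131 CPM) stands above its controls in the myeloid sum.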

How the data were processed

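The authors prepared stranded libraries of messenger RNA, aligned the reads to GRCm38 with STAR 2.5.2 and deposited raw counts of reads per Ensembl gene. The submitters' processing notes also name HTSeq 0.11.2, Cufflinks 2.1.1 and bcl2fastq 2.19. Which tool made the deposited counts, its strand setting and the annotation release are not given in the sources used here. Groups came from the sample labels, and the set of each KO library from the style of its title. Names and positions came from GENCODE M21, which held 42329 of the 42687 genes, and promoters from RefSeq (GRCm38.p6).

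KO and control libraries of a set were compared with edgeR's quasi-likelihood test (TMM, filterByExpr, Benjamini-Hochberg over all genes tested), all sets together with the set as a covariate, and differences between sets in 1 fit of 6 groups. A gene was called at an adjusted p under 0.05 and a fold change above 1.5. Intervals are 95%, SE are of log2 fold changes, log2 CPM used a prior count of 2, and the floor of 3 counts covers counting error only. The tests were tested on simulated data first. All 10 members were named. Of other chemokines and receptors, the 8 called with the smallest p over all sets and the receptors of members were named, and for each member the 3 genes of highest r. Some genes that this rule names are not reported here. The members and lists were chosen with earlier results of these data known. Alternatives were DESeq2, other scalings, all genes with at least 1 count, a replicate block, a fit of all 14 libraries and leaving out each library. Versions were R 4.3.3, edgeR 4.0.16, DESeq2 1.42.0, Python 3.11.15 and matplotlib 3.10.9.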

Additional observations from a re-analysis of the deposited data

Results flagged for a closer look

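Among the 7 KO libraries, 4 members had 1 library far from the others by Dixon's criterion (a gap above 0.568 of the whole range). Chance meets it in about 1 in 20 groups of normally distributed values. Whether CPM of these genes follow that form was not tested, so this rate may not apply. Members also varied together, so the flags are not independent. The values were 14.8 CPM of Ccl2 (next highest 2.51), 6.46 CPM of Ccl7 (next 2.54) and 42.4 CPM of Cxcl12 (next 15.4), all in KO replicate 1 of the WT set. The fourth was 14.1 CPM of Ccl3 in KO replicate 2 of the Ctrl set (next 3.33). The marker sums of these libraries are given above, and their part was not tested.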

How the results depend on the processing

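All 10 members kept a log2 fold change below 0 in KO vs. WT, in KO vs. CreCtrl and over all sets under every alternative run, and in KO vs. Ctrl all but Cx3cr1 without Ctrl replicate 1 (0.52, adjusted p = 0.801) and Ccl3 without KO replicate 1 (0.20, adjusted p = 0.984), with ranges of -1.63 to 0.52 and -1.87 to 0.20 when a library was left out. The number called in KO vs. WT was 10, 6 to 10 when a library was left out, and 9 with the replicate block. In KO vs. Ctrl it was 0, 0 to 0 when a library was left out, 0 with the replicate block, 4 with DESeq2, 5 with all genes of at least 1 count and 2 in the fit of all 14 libraries, where 0, 1191, 1658 and 647 genes were called in all by the edgeR test, DESeq2, all genes and the 14-library fit. In KO vs. CreCtrl it was 8, 6 to 10 when a library was left out, 9 with the replicate block and 1 in the fit of all 14 libraries (2498 genes in all, and 3762, 703 and, with all genes, 4287). The block added Ccl3 (adjusted p = 0.0213) there and dropped Cx3cl1 in KO vs. WT (0.0565). Over all sets it was 10, 9 to 10 when a library was left out and 9 with the block, Ccl4 being lost. For fits that left out a library, and for the alternatives in KO vs. WT and over all sets, genes called in all are not given here. Deviations of same-numbered KO and control libraries correlated weakly (r -0.02 to 0.13), not above 0.1 in every pair, and the labels name nothing that such libraries share, so they were not treated as pairs. With all genes of at least 1 count, 5 members passed in the difference between the WT and Ctrl sets. In that between the WT and CreCtrl sets 1 passed, as in that between the Ctrl and CreCtrl sets. The genes that passed in all in these fits are not given here, so the counts are not read as particular to the members. In the difference between the Ctrl and CreCtrl sets, the value of Cx3cl1 (-0.04) was 0.04 with RLE and 0.10 with library size alone. Scaling by library size alone moved the median of all genes to -0.32, -0.11 and -0.24 in the 3 sets. From the mean of the log2 CPM of Ccl3 and Ccl4 instead of their sum, the log2 ratio to Cxcl12 differed by -0.32, 2.51 and 2.41. The causes of these shifts were not tested. Sets of 2 against 2 libraries and members with few reads, Ccr2 above all, limit the precision.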
